A study of Mus musculus with 4 samples.

Results

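The transcripts of 10 genes for effector cytokines and death ligands were followed through CD8+ T cells of the bone marrow (BM): Ifng, Tnf, Lta, Ltb, Fasl, Tnfsf10, Il2, Csf2, Csf1 and Il10. They were chosen by name, and each of the 10 was matched to 1 of the 17561 genes of the deposited count table. The cells came from C57BL/6 background recipients (WT or CRBN transgenic) given BM and T cells from matched donors after myeloma had been established, and they were sorted by FACS 28 days after transplantation (SCT). There were 4 groups, each a single library of CD8+ T cells from 5 pooled mice: isotype control (cIg) with vehicle, αTIGIT with vehicle, isotype control with lenalidomide, and αTIGIT with lenalidomide. Antibody was started on the day of transplant and lenalidomide or vehicle on day 14. CRBN transgenic mice carry a modified cereblon that lenalidomide can engage, and the labels do not say which group was WT or transgenic. Libraries are numbered 1 to 4 in the deposited tables with no treatment beside the number, so no value below is given to a treatment, and each library stands as 1 sample of CD8+ T cells.

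Effector CD8+ T cells act by 3 routes: they secrete cytokines, they display ligands that engage death receptors on other cells, and they release cytotoxic granules. IFN-γ and TNF act on target and bystander cells, the membrane proteins FasL and TRAIL (encoded by Fasl and Tnfsf10) bind the receptors Fas and DR5 and start cell death, and lymphotoxins shape lymphoid tissue. IL-2 and GM-CSF are cytokines of recently activated T cells, M-CSF maintains macrophages, and IL-10 restrains inflammation and is also made by T cells under lasting stimulation.

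Values are CPM, the unique molecular identifiers (UMIs) of a gene scaled to the UMIs of all genes, both summed over the cells of a cluster, with exact Poisson intervals at 95% that cover counting error only. The table holds 11754 cells with 15556967 to 38440687 UMIs per library, and the authors' 8 clusters were used: naive (Tn), central memory (Tcm), transitory Teff, GzmB+ Teff, TIGIT+ Teff, GzmA+ Tex, TIM-3+ Tex and cycling cells. Clusters held 31 (TIM-3+ Tex, library 3) to 1387 cells (Tcm, library 4) in a library, and 112 cells carried a barcode that occurred in a pair of libraries. CD8 T cell markers were found in 99.1% to 100% of the cells of each cluster. This is no independent check, as the paper states that cells were kept for expression of Cd3e/g and Cd8a. The 99.1% was in GzmA+ Tex, so some of its cells had no UMI of Cd3e, Cd3g, Cd8a or Cd8b1. The Tex markers Pdcd1, Havcr2, Tox, Lag3 and Tigit summed to 75.4 CPM in Tn and 2301 CPM in TIM-3+ Tex. Markers set some clusters apart from their names. In Tcm, 6 NK cell markers summed to 837 CPM (768 to 882 in single libraries). The other clusters held 139 CPM (Tn) to 685 CPM (GzmA+ Tex) of them. GzmB+ Teff held 2185 CPM of the 5 interferon response genes Ifit1, Ifit3, Isg15, Mx1 and Rsad2, against 44.7 to 186 CPM in the other clusters. In GzmA+ Tex, 95.6% of cells had a UMI of 1 of 10 macrophage markers (1612 CPM, 1141 to 1813 in single libraries, with none of the markers at 0), against 12.3 to 105 CPM elsewhere. The part of macrophage RNA in the levels of GzmA+ Tex was not tested, as 23 of its 571 cells had neither a macrophage nor a plasma or B cell marker.

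The upstream sequences below are shown for 4 genes whose levels followed different patterns. Ifng was lower in Tn and Tcm than in the other clusters, and Fasl was lower in Tn alone. Il2 was highest in Tcm, and pooled Tnf ran from 17.0 CPM in TIM-3+ Tex to 28.1 CPM in Tcm. Each sequence is the 250 bases before the RefSeq start, 5′ to 3′ on the strand of the gene. Capitals mark the NFAT core GGAAA (or TTTCC, the same letters on the other strand) and the TATA box TATAAA.

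Ifng, upstream window, GRCm38.p6 chr10:118440796-118441045, plus strand: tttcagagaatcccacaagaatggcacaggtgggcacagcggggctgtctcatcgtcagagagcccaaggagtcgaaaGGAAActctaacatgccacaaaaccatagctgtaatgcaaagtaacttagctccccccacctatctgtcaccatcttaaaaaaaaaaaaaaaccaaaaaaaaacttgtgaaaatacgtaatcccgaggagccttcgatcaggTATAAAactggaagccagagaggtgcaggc

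Fasl, upstream window, GRCm38.p6 chr1:161788496-161788745, minus strand: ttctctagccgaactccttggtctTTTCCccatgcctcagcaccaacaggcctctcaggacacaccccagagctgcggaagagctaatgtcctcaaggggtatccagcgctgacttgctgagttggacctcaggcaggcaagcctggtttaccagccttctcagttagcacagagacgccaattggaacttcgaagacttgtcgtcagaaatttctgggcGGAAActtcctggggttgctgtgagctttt

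Il2, upstream window, GRCm38.p6 chr3:37125955-37126204, minus strand: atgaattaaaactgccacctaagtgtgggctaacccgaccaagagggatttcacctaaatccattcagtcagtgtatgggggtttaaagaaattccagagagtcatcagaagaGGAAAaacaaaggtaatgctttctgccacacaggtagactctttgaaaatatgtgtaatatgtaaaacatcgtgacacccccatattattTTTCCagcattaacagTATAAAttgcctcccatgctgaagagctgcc

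Tnf, upstream window, GRCm38.p6 chr17:35202008-35202257, minus strand: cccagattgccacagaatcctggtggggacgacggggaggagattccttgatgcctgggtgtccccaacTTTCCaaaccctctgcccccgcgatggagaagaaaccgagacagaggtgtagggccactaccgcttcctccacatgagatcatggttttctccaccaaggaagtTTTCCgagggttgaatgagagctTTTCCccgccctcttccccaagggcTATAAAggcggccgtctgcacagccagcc

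RefSeq held a window for 9 of the 10 genes, the exception being Il10. The NFAT core, the letters that the calcium-dependent factor NFAT recognises, was in 9 of 9 windows on either strand, and also in 55.6% of 27025 mouse promoters of the same length. TATAAA was found in 4 of 9 (Ifng, Tnf, Lta and Il2), against 12.97% of all promoters. The AP-1 letters TGANTCA (6.87% of promoters), the T-box letters AGGTGTGA (1.14%) and the core of the interferon response element (3.04%) were in 0 of 9. These are matches of letters and not measured sites. Ltb, Tnf and Lta lie side by side on chromosome 17, at 35194439 to 35196320 (plus strand), 35199381 to 35202007 (minus) and 35203165 to 35205351 (minus) in GRCm38. Ifng (ENSMUSG00000055170) is on chromosome 10 at 118441046 to 118445892 and Fasl (ENSMUSG00000000817) on chromosome 1 at 161780689 to 161788495. Il10 is also on chromosome 1 (131019845 to 131024974), Csf2 on chromosome 11 (54247271 to 54249667), and Tnfsf10, Il2 and Csf1 on chromosome 3, from 27317028, 37120523 and 107741048 respectively.

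Ifng was lowest in Tn, higher in Tcm and higher again in the Teff, Tex and cycling clusters. In libraries 1 to 4 its level was 21.1, 21.2, 7.45 and 17.8 CPM in Tn, and 33.5, 35.8, 37.2 and 38.1 CPM in Tcm. In TIGIT+ Teff it was 185, 217, 254 and 176 CPM, and in TIM-3+ Tex 180, 236, 437 and 206 CPM. The ranges of Tn, Tcm and the other 6 clusters did not overlap, whereas TIGIT+ Teff and TIM-3+ Tex could not be separated (207 CPM in each pooled, TIGIT+ Teff above in 1 of 4 libraries). The value of 437 CPM came from 31 cells. After each cell was thinned to 2500 UMIs, 3.65% of Tn cells, 7.78% of Tcm, 18.4% to 27.1% of the transitory, GzmB+ and GzmA+ clusters and of cycling cells, and 34.8% of both TIGIT+ Teff and TIM-3+ Tex had an Ifng UMI. Without thinning the shares were 9.39% in Tn (median 7834 UMIs per cell) and 65.4% in TIM-3+ Tex (8433.5 UMIs).

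Tnf, the other classic effector cytokine, followed no such steps. In libraries 1 to 4 it was at 23.5, 21.6, 24.9 and 15.2 CPM in Tn, and at 15.8, 18.4, 18.4 and 16.6 CPM in transitory Teff. Its pooled level was highest in Tcm, at 27.5, 31.7, 32.5 and 26.1 CPM in the libraries, and lowest in TIM-3+ Tex, at 19.0, 12.2, 56.2 and 13.1 CPM. The libraries overlapped between every cluster and the next in order, Tcm was highest in 2 of 4 libraries and TIM-3+ Tex lowest in 0 of 4, its pooled 16.98 CPM being next to 17.00 CPM in transitory Teff. After thinning, 2.84% (TIM-3+ Tex) to 6.47% (Tcm) of cells had a Tnf UMI, and 4.55% of Tn did. The 5 Teff and Tex clusters together and Tn had a log2 ratio of Tnf of -0.09, with a counting interval of -0.31 to 0.12. Tcm was above Tn in 4 of 4 libraries (log2 0.42, 0.20 to 0.64). It was also above the 5 Teff and Tex clusters together in 4 of 4 (0.51, 0.37 to 0.66).

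The lymphotoxins, neighbours of Tnf, had their lowest pooled levels in cycling cells. Ltb was highest in Tcm in 4 of 4 libraries (985, 823, 928 and 933 CPM) and lowest in cycling cells in 4 of 4 (317, 334, 343 and 315 CPM), and these ranges did not overlap with those of the cluster next in order. A thinned Ltb UMI was seen in 85.7% of Tcm cells and 46.4% of cycling cells. Lta was at 12.4, 11.5, 7.97 and 8.49 CPM in Tcm, and at 3.27, 2.44, 0.224 and 3.74 CPM in cycling cells. Lta was lowest in cycling cells in 1 of 4 libraries, as TIGIT+ Teff had 0 UMIs in library 2 and TIM-3+ Tex 0 in library 3. Its Tcm range overlapped with that of transitory Teff (3.68 to 13.4 CPM), and its UMIs were few, 669 over all cells.

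Both death ligands were lowest in Tn. Fasl was at 51.6, 35.6, 34.6 and 42.5 CPM in Tn in libraries 1 to 4, and at 217, 137, 201 and 118 CPM in TIGIT+ Teff. TIM-3+ Tex followed with 180, 130, 137 and 173 CPM and Tcm with 136, 88.5, 113 and 125 CPM. Tn lay below the 7 other clusters without overlap, while TIGIT+ Teff was above TIM-3+ Tex in 3 of 4 libraries and their ranges overlapped. Unlike Ifng, Fasl was as high in the memory cluster as in most Teff and Tex clusters: a thinned UMI was seen in 26.9% of Tcm cells, 26.2% of transitory Teff and 9.09% of Tn.

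Tnfsf10 had 1 leading cluster. In TIGIT+ Teff it was at 141, 79.8, 192 and 68.0 CPM, highest in each of the 4 libraries, and in transitory Teff at 42.3, 31.6, 48.6 and 33.8 CPM. Libraries 1 and 3 were above libraries 2 and 4 in TIGIT+ Teff, GzmA+ Tex and cycling cells alike. TIGIT+ Teff held 436 and 271 cells in libraries 1 and 3 against 50 and 59 in libraries 2 and 4. Without library 3, the pooled level was 126 CPM in place of 146, and with each cell thinned to 2500 UMIs it was 188 CPM. A thinned Tnfsf10 UMI was seen in 33.3% of TIGIT+ Teff cells, 10.5% of Tcm and 3.73% of Tn.

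Il2 and Csf2, cytokines of early activation, peaked in Tcm. Il2 was at 21.9, 16.0, 20.6 and 12.5 CPM in Tcm, highest in each library and apart from every other cluster except for 1 library of GzmA+ Tex (12.95 CPM). In Tn it was at 1.17, 3.20, 0.745 and 1.59 CPM, and in cycling cells at 2.65, 1.53, 1.34 and 2.45 CPM. Csf2 was at 19.6, 15.1, 16.9 and 18.4 CPM in Tcm, highest in each library, and next in GzmB+ Teff at 15.5, 6.64, 4.19 and 18.0 CPM, a range that overlapped with that of Tcm. Few cells were positive at an equal depth, 4.48% of Tcm for Il2 and 4.42% for Csf2, against 0.596% and 0.82% of Tn.

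Csf1 and Il10 were near absent from Tn and Tcm. Csf1, the macrophage growth factor, had 3 UMIs in 1342 Tn cells and 25 in 3418 Tcm cells (0.975 CPM). It reached 16.6, 54.7, 49.9 and 19.2 CPM in TIGIT+ Teff and 18.8, 21.7, 6.25 and 19.8 CPM in TIM-3+ Tex. Each of these was highest in some libraries, TIGIT+ Teff in 2 of 4, and without library 1 the TIGIT+ Teff level was 44.6 CPM in place of 29.3. Il10 had 0 UMIs in Tn, which allows up to 0.275 CPM by the limit of 3 counts, and 1 UMI in Tcm. Of its 256 UMIs, 141 were in TIM-3+ Tex, at 4.48, 6.12, 37.5 and 28.2 CPM in libraries 1 to 4. The high value of library 3 came from 12 UMIs, 11 of them in 1 cell. The pooled level of 13.8 CPM was 6.46 CPM without library 4 and 21.6 CPM without library 1.

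**Figure D1:**
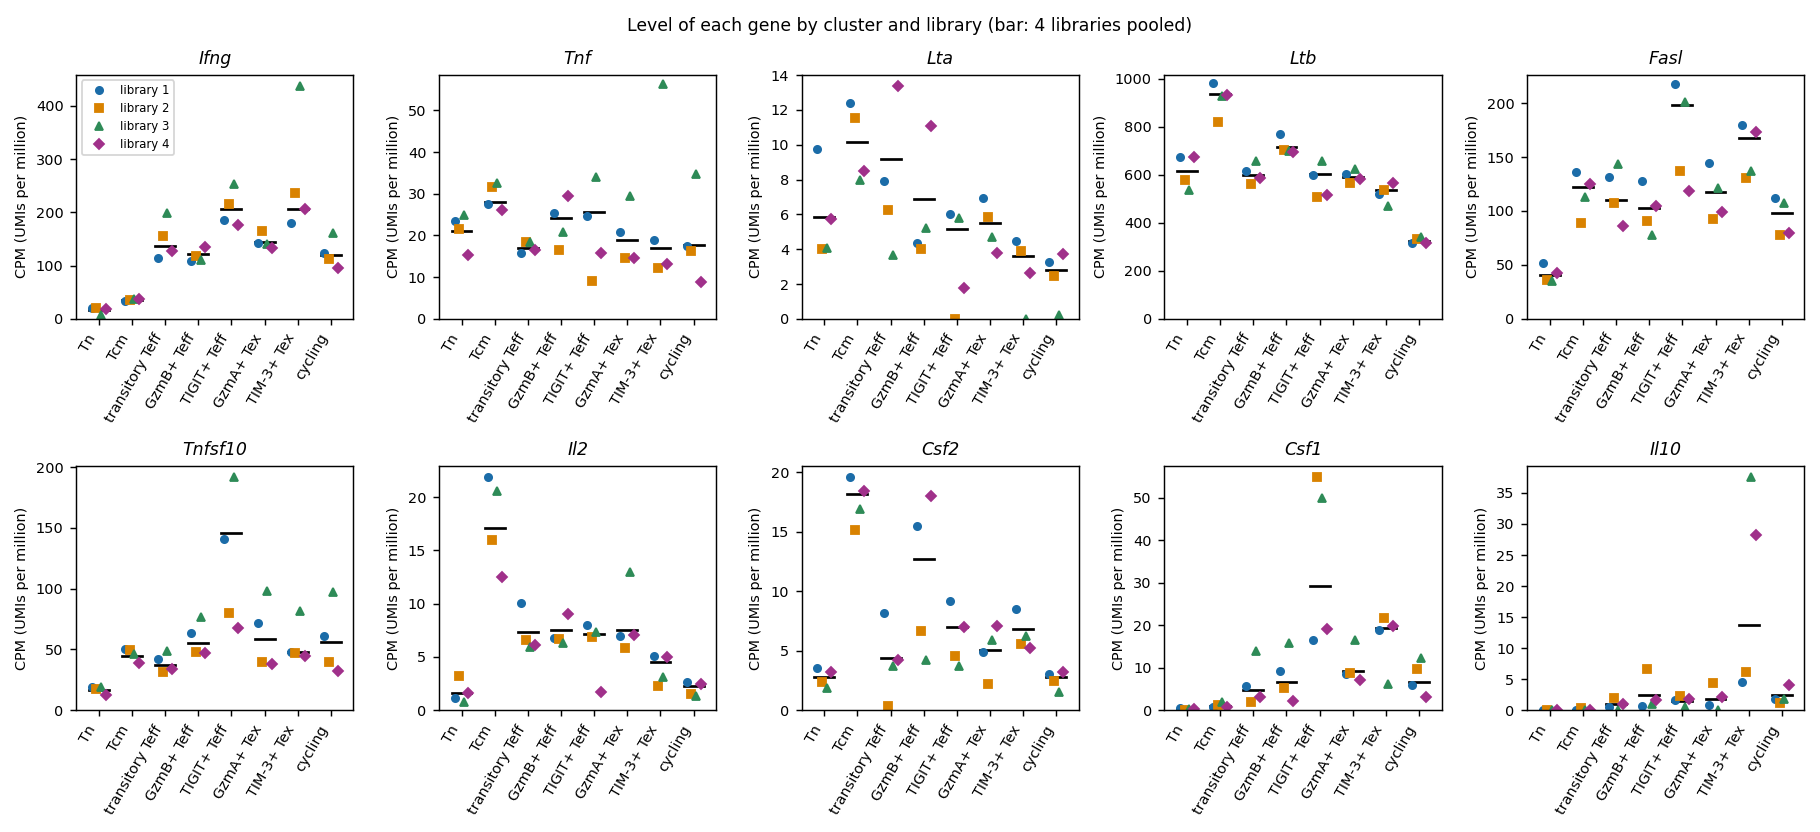
Level of each of the 10 genes in CPM (linear axes from 0) by cluster, with 1 point per library and a bar for the 4 libraries pooled. Ltb, Il2 and Csf2 are highest in Tcm in every library and Tnfsf10 in TIGIT+ Teff, Ifng and Fasl are lowest in Tn, and the single high Ifng point of TIM-3+ Tex (437 CPM) is library 3 with 31 cells.

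To set these levels against all genes, ratios were formed with 10 CPM added to both sides, and a gene was called when the pooled ratio was at least 2-fold and its direction the same in the 4 libraries. Clusters were built from these counts, so the ratios are descriptions with no test. The added 10 CPM makes the ratios of genes at low CPM smaller. Between the 5 Teff and Tex clusters together and Tn, 3.22% of 11022 genes were called higher, and 4 of the 10 genes were: Ifng (log2 2.69), Fasl (1.53), Tnfsf10 (1.43) and Csf1 (1.15). Csf1 was no longer called when each clonotype was weighted as 1 cell. The other 6 had log2 values from -0.06 (Tnf) to 0.53 (Il10), and the median of the 10 was 0.53 against 0.17 for all genes. In the other direction 0.336% of genes were called and 0 of the 10. In TIGIT+ Teff against the other 4 Teff and Tex clusters, a comparison added after the levels were seen, 3.44% of genes were called higher and 1 of the 10, Tnfsf10 (log2 1.44). In single libraries its ratio was 0.65 to 1.32, each below the pooled value, in which libraries 1 and 3 hold most of the TIGIT+ Teff cells. In the other direction 0.148% were called and 0 of the 10. In that comparison the ratio rose with the length of the gene (Spearman rho 0.55 over 10811 genes, a description across genes of the same libraries), and 1609 genes of a length close to that of Tnfsf10 had a median log2 ratio of 0.20.

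Tcm exceeded Tn in a different set. Of 10207 genes, 1.14% were called higher, with 4 of the 8 genes that had 50 UMIs in these clusters: Fasl (log2 1.37), Il2 (1.22), Csf2 (1.14) and Tnfsf10 (1.04). In the other direction 0.304% of genes were called and 0 of the 8. Ifng missed the rule at 0.78, and Csf1 and Il10 were too low to enter. Against the 5 Teff and Tex clusters, also compared after the levels were seen, 0.382% of genes were called higher in Tcm and 0 of the 10. With 10 CPM added, Csf2 was at 0.75, Il2 at 0.70 and Ltb at 0.63. Before it was added, Csf2 was at 18.2 against 6.74 CPM (log2 1.43) and Il2 at 17.1 against 6.67 CPM (1.36). Both were higher in 4 of 4 libraries. In the same comparison 1.76% of genes were called lower and 2 of the 10, Ifng (-1.91) and Csf1 (-1.06).

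Between TIM-3+ Tex and transitory Teff 1 gene of the 10 passed the 2-fold rule. Il10 was called higher (log2 1.11, 0.43 to 2.25 in single libraries) where 0.485% of 9895 genes were, while 0.253% were called lower and 0 of the 10. Csf1 was at 0.99 with library 3 in the opposite direction (-0.56). With 10 CPM added, Ifng (0.55), Tnfsf10 (0.29) and Csf2 (0.23) were higher in 4 of 4 libraries by less than 2-fold. Lta (-0.49), Il2 (-0.26) and Ltb (-0.15) were lower in 4 of 4 libraries by less than 2-fold. Before 10 CPM was added, Lta was past 2-fold, at 3.61 against 9.15 CPM (log2 -1.34, -1.92 to -0.80). Without cells that had a macrophage, plasma or B cell marker the pooled Il10 value was 1.002, but library 3 then had 0 Il10 UMIs in both clusters, and without a direction in that library the gene was not called. Without library 4 the Il10 value was 0.58 and 0 of the 10 genes were called, and without library 3 both Il10 (1.05) and Csf1 (1.12) were. In cycling cells against the 5 Teff and Tex clusters, 0.158% of 11366 genes were called lower and 2.99% higher, with 0 of the 10 in either direction. Ltb was nearest at -0.88, with -0.91 to -0.78 in single libraries, and it was called when cells without a TCR were left out (-1.14). The median of the 10 was -0.40 against -0.01 for all genes. Before 10 CPM was added, low genes were past 2-fold: Il2 at 2.24 against 6.67 CPM, Csf2 at 2.76 against 6.74 and Lta at 2.80 against 6.32.

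**Figure D2:**
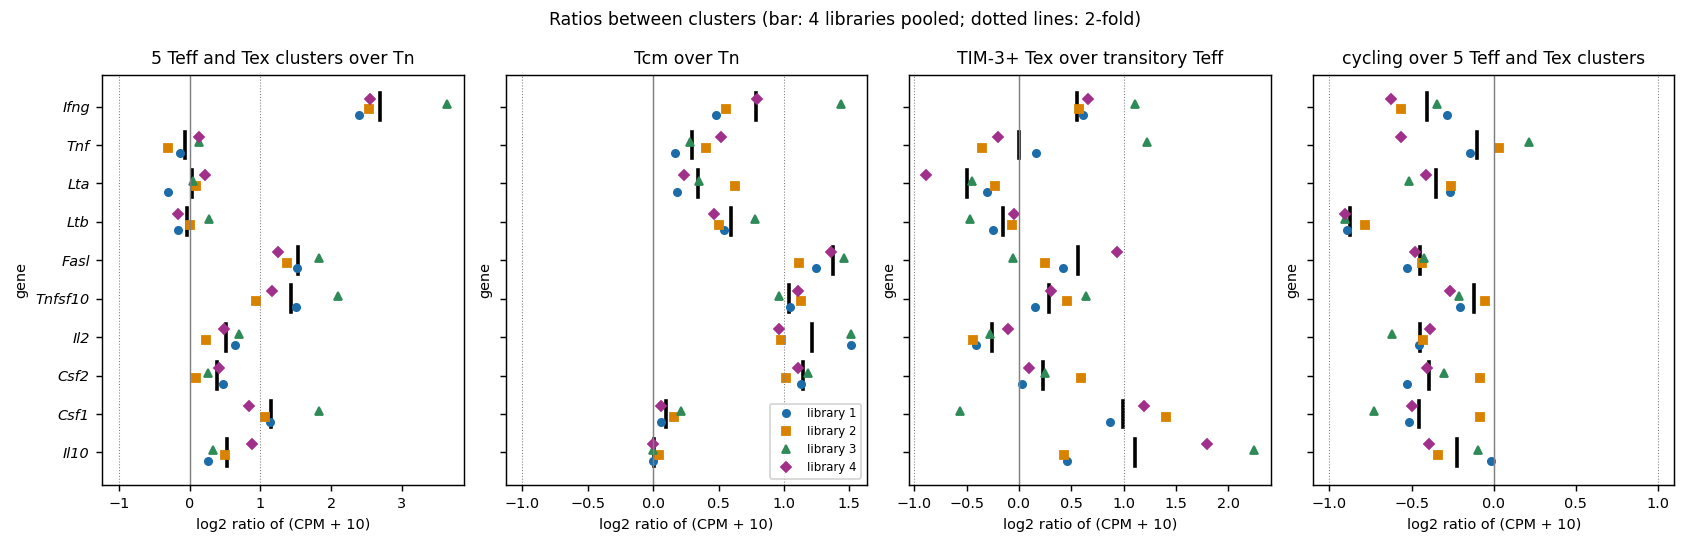
Log2 ratio of CPM with 10 added, for each gene in 4 comparisons of clusters, with 1 point per library, a bar for the pooled value and dotted lines at 2-fold. Ifng, Fasl, Tnfsf10 and Csf1 pass the line in Teff and Tex over Tn, Fasl, Il2, Csf2 and Tnfsf10 in Tcm over Tn, and Il10 in TIM-3+ Tex over transitory Teff with its libraries spread from 0.43 to 2.25.

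The machinery around these genes was read from 4 lists. Against the 3.22% of all genes called higher in the 5 Teff and Tex clusters than in Tn, 2 of 14 cytokine and death receptors were called, Il10ra (log2 1.71) and Tnfrsf1b (1.55), the latter the second TNF receptor. Among transcriptional regulators 8 of 18 were called higher, led by Bhlhe40 (2.20), which sustains IFN-γ and GM-CSF production, and Prdm1 (2.07), which encodes Blimp-1. Stat4, which relays IL-12, stood at -0.00. None of 9 regulators of mRNA decay and translation was called, with Rc3h2 at 0.56 and Zfp36, whose product destabilises cytokine mRNAs, at -0.43. In the release list 2 of 7 were called, Stx11 (1.42) and Rab27a (1.13). The list medians were 0.23, 0.91, 0.24 and 0.60, against 0.17 for all genes. In Tcm over Tn, Il2rb (1.06) and Bhlhe40 (1.59) were the only genes of the 4 lists called.

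Genes with the most similar profiles were found by the Pearson correlation of log2(CPM + 10) over 32 sums, 8 clusters in 4 libraries, which share cells and depth within a library. For Ifng these were 2010111I01Rik (r = 0.96), the chemokine gene Ccl4 (0.96) and Ptms (0.95), and for Fasl Cd38 (0.91), Rgs3 (0.91) and Cd7 (0.90). Tnfsf10 was closest to Lpin2 (0.94), Tab2 (0.93) and Cers6 (0.92), Csf1 to Rbpj (0.88), Ttc21b (0.87) and Ccdc186 (0.87), and Ltb to Hopx (0.90), Ctla2a (0.87) and Pim2 (0.86). Klrc1, an NK receptor gene, was among the nearest 3 of both Il2 (0.84) and Csf2 (0.84). Tnf and Lta had no gene above 0.77 and 0.75. These lists depend on the sums used. With libraries pooled (8 sums) the nearest 3 of Ifng were Tox, Lag3 and Glrx, and Lpin2 for Tnfsf10 and Ctla2a for Ltb were the only neighbours in both searches. Within the 10, the highest values were Fasl with Tnfsf10 (0.77), Ifng with Fasl (0.74) and Il2 with Csf2 (0.74), while Ifng with Tnf was at -0.07.

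The share of UMIs held by the cells with the most of them differed between genes, and it was low for Ltb, which had a UMI in 91.1% of all cells. The 118 cells with the most UMIs of a gene (1% of all cells) held 4.43% of Ltb and 6.55% of Fasl UMIs, 14.3% of Ifng, 20.8% of Tnf, 33.6% of Csf2, 48.9% of Csf1 and 89.5% of Il10 UMIs. The share is bounded by the number of UMIs, which was 65057 for Ltb and 256 for Il10. Ifng had 10 or more UMIs in 85 cells. They included 24 of 1928 cycling cells (median 13959.5 UMIs per cell) and 23 of 1056 TIM-3+ Tex (8433.5 UMIs). A further 12 of 571 GzmA+ Tex (10378 UMIs), 11 of 816 TIGIT+ Teff (6047 UMIs) and 0 of 1342 Tn were counted. The highest, a TIGIT+ Teff cell of library 3 with 3201 UMIs in all, had 57 Ifng and 8 Tnf UMIs. Of these 85 cells 40.0% had a Tnf UMI, against 14.4% of the 4430 cells with 1 to 9 Ifng UMIs, without adjustment for depth. Csf2 reached 28 UMIs in 1 TIM-3+ Tex cell that also had 11 of Ifng and 20 of Tnf.

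**Figure D3:**
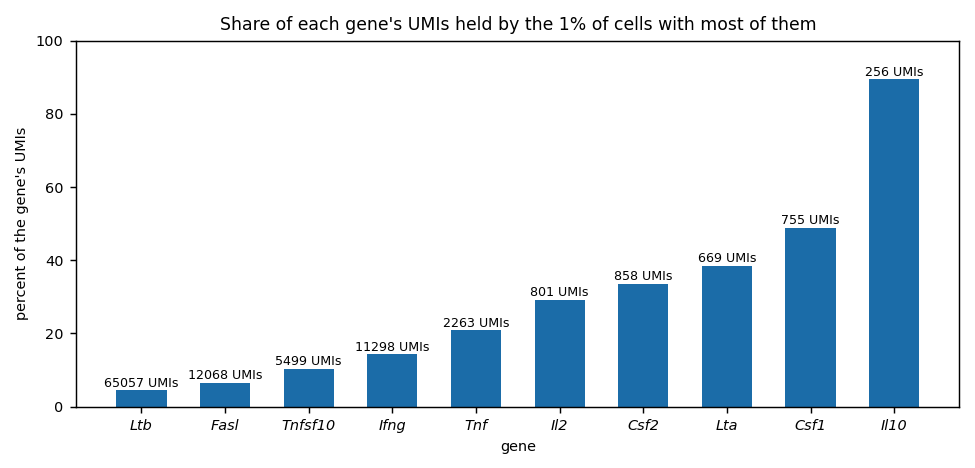
Percent of each gene's UMIs found in the 118 cells with the most of them, bars from 0, with the gene's total UMIs above each bar. The share runs from 4.43% for Ltb to 89.5% for Il10, and the genes with few UMIs stand at the right.

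Joint detection was compared with the number of cells expected if the genes were independent within each cluster and library, after thinning to 2500 UMIs. Over 26 pairs with 20 or more expected cells the median ratio of observed to expected was 1.07, and 9 pairs were above 1 in the 4 libraries. Fasl with Tnfsf10 was seen in 464 cells where 405 were expected (1.15, above 1 in 4 of 4 libraries), and Ifng with Fasl in 710 where 625 were expected (1.14, 4 of 4). Ifng with Tnf was at 1.14 (0.958 to 1.23 in single libraries), and Tnfsf10 with Il2 at 1.37 (42 cells). Lta with Fasl was at 0.693 (29 cells, below 1 in each library), but at 1.003 when all UMIs were used. These ratios are given as descriptions.

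Il10 in TIM-3+ Tex of library 4 was concentrated in 1 clone. Clones were defined here by the TRB CDR3 amino acid sequence within a library, and 11 clones of TIM-3+ Tex had 15 or more cells, a view added after the Il10 levels were seen. A clone of 70 cells in library 4 held 59 of the 97 Il10 UMIs of that library's TIM-3+ Tex, in 19 cells, or 208 CPM (158 to 268). The other 10 clones had 0 to 33.9 CPM, and the other 288 TIM-3+ Tex cells of library 4, of which 167 had no TRB, had 12.1 CPM (8.53 to 16.5). The same clone was at 123 CPM for Csf1 against 10.5 CPM in those 288 cells, at 510 CPM for Ifng against 178, and at 359 CPM for Fasl against 156. Ltb was at 422 CPM (350.0 to 505) in it, against 580 in those cells and 503 (457 to 553) in the 121 of them with a TRB, an interval that overlapped. Tnfsf10 was at 35.2 against 45.1 CPM with overlapping intervals. Against the 121 cells with a TRB, Il10 was at 11.6, Csf1 at 11.6, Ifng at 209.9 and Fasl at 177 CPM. Its cells had a median of 3886.5 UMIs against 10251 in the others. Without this clone, TIM-3+ Tex pooled over 4 libraries held 82 Il10 UMIs in 49 cells, at 8.23 CPM in place of 13.8. GzmB+ Teff, the next cluster in order, was at 2.45 CPM. In transitory Teff of library 4 this Il10-high clone had 25 cells and 1 Il10 UMI. Its TRB CDR3 amino acid sequence also occurred in library 1, in 19 TIM-3+ Tex cells with 3 Il10 UMIs. These cells formed the clone at 33.9 CPM, the highest of the other 10.

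**Figure D4:**
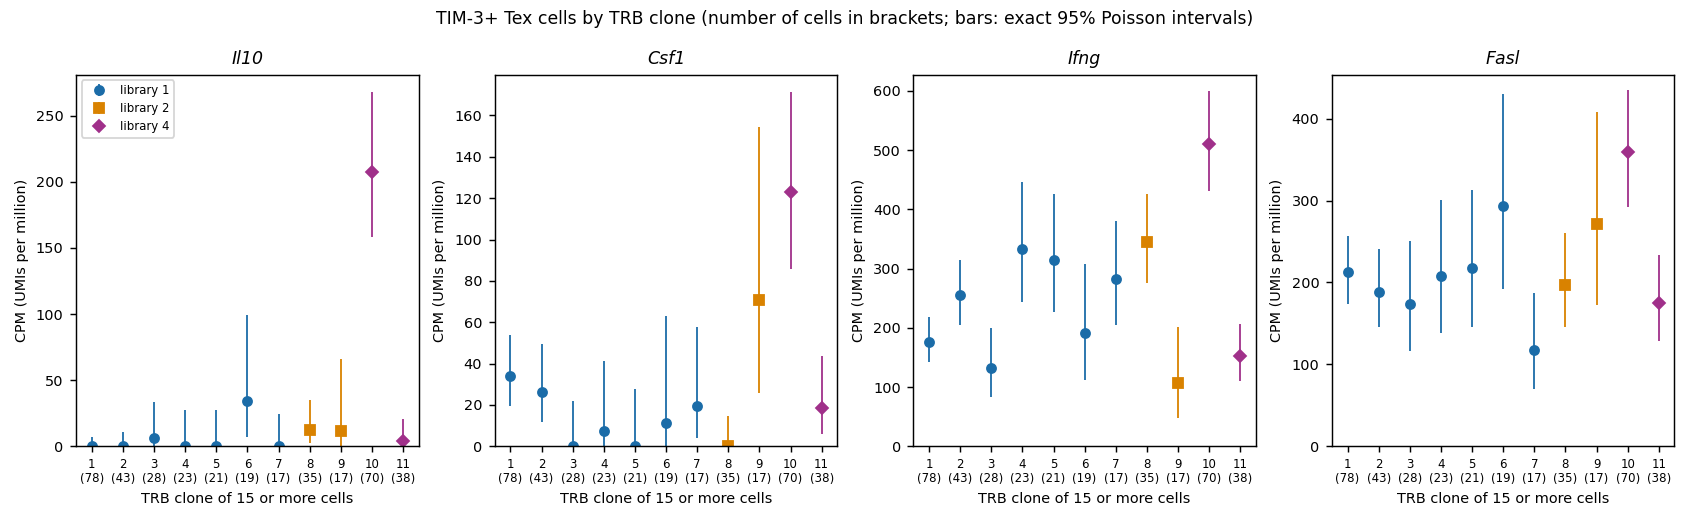
CPM of Il10, Csf1, Ifng and Fasl in the 11 TRB clones of 15 or more TIM-3+ Tex cells (numbers of cells in brackets), coloured by library, with exact 95% Poisson intervals. Clone 10 of library 4, with 70 cells, stands at 208 CPM of Il10 while the other 10 lie between 0 and 33.9 CPM. The value of 33.9 CPM is clone 6 of library 1, which had the same TRB CDR3 amino acid sequence.

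TCR clone size was not used to form the clusters, so it allowed a test within a cluster. Cells whose clonotype (both chains, within a library) was found in 2 or more cells of that library, called expanded here, were compared with cells of single clones in transitory Teff, GzmB+ Teff and cycling cells, with UMIs summed per library and clone class and the library as a block. Expanded and single classes held 1076 and 368 cells in transitory Teff and 747 and 248 in cycling cells. In GzmB+ Teff they held 141 and 361, with 22 (library 3) to 59 (library 4) expanded cells per library. Cells with no TCR were left out, 447, 230 and 933 in transitory Teff, GzmB+ Teff and cycling cells. Their medians were 9427, 11029.5 and 17063 UMIs. The test was edgeR's quasi-likelihood test with Benjamini-Hochberg adjustment over all genes tested. Tnf, Ifng, Ltb, Fasl and Tnfsf10 passed the filter on low counts and the other 5 did not.

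Ifng was higher in expanded clones in the 3 clusters. In transitory Teff it was at 134, 189, 249 and 149 CPM in expanded and 92.7, 81.2, 107 and 120 CPM in single clones of libraries 1 to 4. In GzmB+ Teff it was at 214, 211, 312 and 117 CPM against 59.6, 52.1, 53.8 and 97.9 CPM, and in cycling cells at 116, 121, 187 and 91.1 CPM against 89.7, 42.9, 69.9 and 59.9 CPM. The expanded clones were above the single clones of the same library in each of the 12 pairs, and library 4 had the smallest gap in GzmB+ Teff. The log2 fold changes were 0.76 (SE 0.15, adjusted p = 0.00766), 1.36 (SE 0.27, adjusted p = 0.00171) and 0.83 (SE 0.17, adjusted p = 0.0119), by edgeR. Among all genes tested, 1.45%, 5.6% and 2.29% were called higher in expanded clones of transitory Teff, GzmB+ Teff and cycling cells. In transitory Teff the call was lost without library 3 (log2 0.66, adjusted p = 0.0505) or when cells were thinned (0.59, adjusted p = 0.0877). In cycling cells it was lost without library 2 (0.66, adjusted p = 0.0716), when cells were thinned (0.23, adjusted p = 0.826) and without cells that had a macrophage, plasma or B cell marker (0.56, adjusted p = 0.21).

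The death ligands rose in expanded clones of GzmB+ Teff and cycling cells. Fasl in GzmB+ Teff was at 162, 99.7, 205 and 186 CPM in expanded against 96.6, 57.7, 40.4 and 95.2 CPM in single clones, with no overlap between the classes, and its log2 fold change was 0.97 (SE 0.21, edgeR adjusted p = 0.00466). After thinning it was 0.65 and no longer called (adjusted p = 0.0969). In cycling cells it was 0.62 (SE 0.15, edgeR adjusted p = 0.0295) and higher in 4 of 4 libraries. In transitory Teff Fasl was at 0.22 (SE 0.15, edgeR adjusted p = 0.542), with library 1 in the opposite direction. Tnfsf10 was at 0.68 in GzmB+ Teff (SE 0.21, edgeR adjusted p = 0.0468), at 0.63 in cycling cells (SE 0.15, edgeR adjusted p = 0.0288) and at 0.34 in transitory Teff (SE 0.17, edgeR adjusted p = 0.356). Tnfsf10 was higher in expanded clones in 4 of 4 libraries in each of the 3 clusters. The Tnfsf10 call in GzmB+ Teff was kept in 1 of 12 alternatives (adjusted p up to 0.456) and was lost on leaving out any of the 4 libraries. In cycling cells the calls were lost without library 1 (Fasl adjusted p = 0.111, Tnfsf10 0.283) or library 2 (0.0753 and 0.0953), and that of Fasl also without library 4 (0.0664). That of Tnfsf10 was also lost without cells with a macrophage, plasma or B cell marker (log2 0.35, adjusted p = 0.39). Both were lost after thinning (Fasl adjusted p = 0.174, Tnfsf10 0.509) and with DESeq2 (0.18 and 0.405). Csf1, too low for the test, was at 4.14, 11.9, 12.2 and 1.47 CPM in expanded and at 0.871 to 2.12 CPM in single clones of cycling cells. Whether these effects differ between clusters was not tested.

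Ltb and Tnf went the other way in cycling cells, where 2.42% of all genes were called lower in expanded clones. Ltb was at 232, 205, 257 and 197 CPM in expanded and 360, 359, 458 and 358 CPM in single clones, with no overlap and a log2 fold change of -0.84 (SE 0.10, edgeR adjusted p = 0.00023). This call was kept under each of 12 alternatives. Tnf was at 18.8, 12.9, 26.2 and 2.57 CPM against 27.0, 24.9, 95.3 and 24.9 CPM, lower in 4 of 4 libraries with overlapping classes, and its log2 fold change was -1.51 (SE 0.32, edgeR adjusted p = 0.0119). A single cell of library 3 with 29 Tnf UMIs lay in the single class, and without cells of 10 or more UMIs of Ifng, Tnf, Csf2 or Il2 the value was -1.11 (adjusted p = 0.102). In transitory Teff 1.45% and in GzmB+ Teff 6.34% of genes were called lower in expanded clones, and 0 of the 5 members. There Ltb stood at -0.10 and -0.08 and Tnf at -0.73 (adjusted p = 0.23) and 0.33 (adjusted p = 0.611), by edgeR. In transitory Teff Ltb was lower in 4 of 4 libraries. Over the 5 members the median was 0.22, 0.68 and 0.62 in the 3 clusters, against -0.01, 0.01 and 0.01 for all genes.

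**Figure D5:**
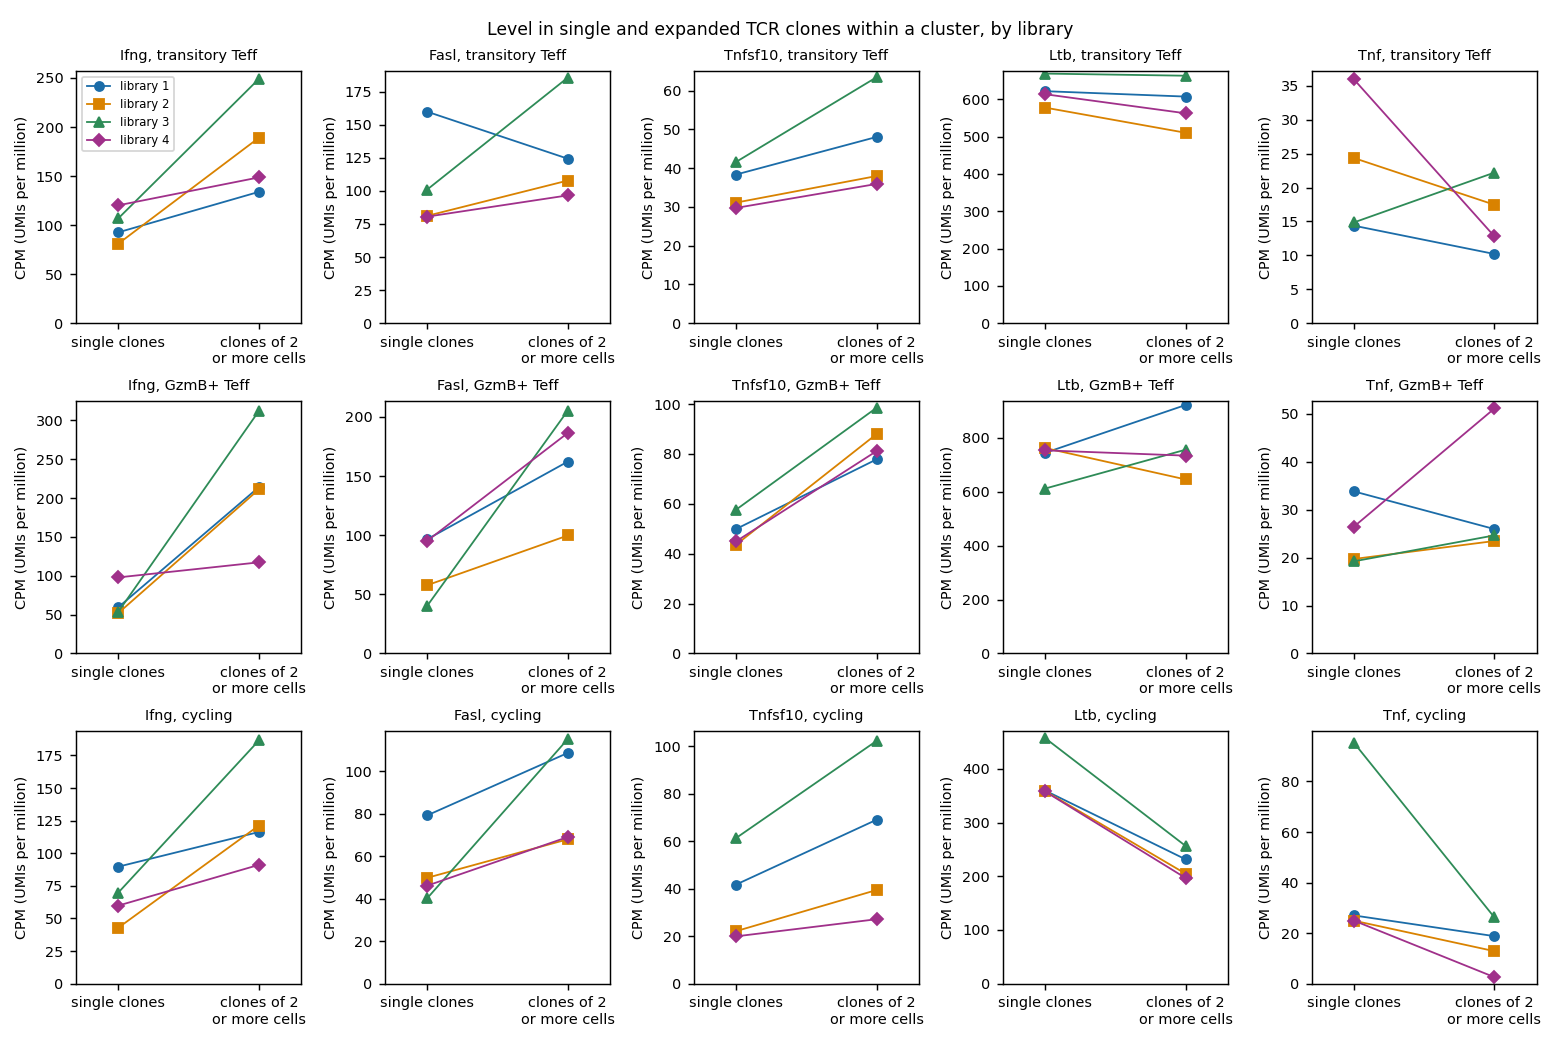
CPM (linear axes from 0) in single clones and in clones of 2 or more cells for 5 genes (columns) in 3 clusters (rows), with a line per library. Ifng and Tnfsf10 lines rise in every panel, and Fasl lines rise in GzmB+ Teff and cycling cells. Ltb lines fall in transitory Teff and cycling cells. Tnf lines fall in cycling cells, where the point of 95.3 CPM is library 3.

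Depth and other cells' markers moved with clone class. The median cell had 4904.5 UMIs in expanded and 5908 in single clones of transitory Teff, 4766 and 7733 in GzmB+ Teff, and 11045 and 12259.5 in cycling cells. Macrophage markers summed to 58.4 to 81.2 CPM in expanded and 15.4 to 32.6 CPM in single clones of GzmB+ Teff, and to 53.0 to 68.5 and 31.8 to 37.4 CPM in cycling cells, while in transitory Teff the ranges overlapped (54.1 to 68.2 and 54.3 to 71.3 CPM). In GzmB+ Teff without cells that had such a marker, Ifng stood at 1.04 (edgeR adjusted p = 0.0263) and Fasl at 0.99 (edgeR adjusted p = 0.00337). With each cell of GzmB+ Teff thinned to 2500 UMIs, Ifng stood at 1.33 (edgeR adjusted p = 0.00172) and Fasl at 0.65 (edgeR adjusted p = 0.0969).

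Other genes of the lists were called in the same test, and for these the main setting alone is given, without the alternatives given for members. Bhlhe40 and Batf were higher in expanded clones in the 3 clusters, with log2 fold changes of 0.51 and 0.95 in transitory Teff, 1.33 and 1.23 in GzmB+ Teff, and 0.78 and 0.91 in cycling cells. BATF is an AP-1 family factor of effector differentiation. Of the regulators, 2 of 18, 6 of 16 and 4 of 18 were called higher in transitory Teff, GzmB+ Teff and cycling cells, against 1.45%, 5.6% and 2.29% of all genes. Their median log2 fold changes were 0.20, 0.20 and 0.17, against -0.01, 0.01 and 0.01 for all genes. Tbx21, which encodes T-bet, was called lower in cycling cells (-0.50, edgeR adjusted p = 0.0484). Prdm1 was at 2.59 in GzmB+ Teff and 0.84 in cycling cells, and the receptor gene Il10ra at 1.46 and 0.56. Of 9 genes of mRNA decay and translation control, 3 were called lower in cycling cells (2.42% of all genes were), Zfp36 (-0.74), Zfp36l1 (-0.79) and Pdcd4 (-0.70), while 0 of 9 and 0 of 7 were called in transitory Teff and GzmB+ Teff. Il2rb, the IL-2 receptor β chain gene, was lower in expanded clones of GzmB+ Teff (-0.51, edgeR adjusted p = 0.0109).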

How the data were processed

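Single CD8+ T cells were profiled with the 10x 5′ platform in 4 libraries of 5 pooled mice each. The authors aligned reads with Cell Ranger (version 7.00 and mm10 per the labels), downsampled libraries to similar depth, and filtered cells by UMIs, mitochondrial share and T cell genes. The deposited expression values are raw UMI counts per gene and cell with no normalization, and all 11754 cells were used. Deposited cluster names, library numbers and combined TCR chains were taken as given, and doublets were not removed here. GENCODE M21 (GRCm38) gave a symbol to 17534 of 17561 genes.

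UMIs were summed per cluster and library and scaled to CPM. Intervals were exact Poisson for CPM, conditional binomial for ratios and Clopper-Pearson for shares, at 95%. They cover counting error only. Where no UMI was found, the upper limit is that of 3 counts. Shares were compared after thinning cells to 2500 UMIs (seed 7). Ratios used 10 CPM on both sides and genes with at least 50 UMIs. A clone class entered with at least 10 cells in a library. Clone classes were tested with edgeR 4.0.16 (TMM, filterByExpr, quasi-likelihood, library as block) at an adjusted p of 0.05, in R 4.3.3. DESeq2 1.42.0 was an alternative. The 2 classes of a library come from the same mice, which is where the block comes from. Differences between libraries are taken up by the block. P-values measure how the difference between classes varied over 4 libraries of pooled mice under different treatments. Sums and intervals were made with scipy 1.17.1 and pandas 2.3.3 under Python 3.11.15. Scripts were tested on simulated data.

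Named genes were the 10 members, for members with 500 or more UMIs the 3 genes nearest in profile, and, of the lists, genes past 2-fold or the test with the highest and lowest ones. Members and lists were chosen with earlier results of these data known, and 1 further list is not reported here. Treatments were not compared, since library numbers carry no treatment. Alternatives changed the added CPM, depth, cells, cluster labels, clone definition, filter, tool and block, and left out each library.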

Additional observations from a re-analysis of the deposited data

How the results depend on the processing

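The count of members called 2-fold higher in Teff and Tex than in Tn was 4, 7 with 1 CPM added in place of 10, and 3 (without Csf1) with each clonotype weighted as 1 cell. The count in Tcm over Tn was 4, also with single libraries left out, 3 (without Tnfsf10) with the Leiden number in place of the name, and 5 (with Ifng) with 1 CPM added. For TIM-3+ Tex over transitory Teff the count was 1, ranged from 0 to 2 when single libraries were left out, and was 0 without cells with a macrophage, plasma or B cell marker. For cycling cells it was 0, but 1 (Ltb) with TCR cells only or with each clonotype weighted as 1 cell, and 2 (Il2 and Csf2) with 1 CPM added. Pooled levels also depended on the weight of deep cells. Tnfsf10 in TIGIT+ Teff was at 146 CPM, at 188 after thinning and at 197 as the mean of per-cell CPM. Il10 in TIM-3+ Tex was at 13.8, 24.6 and 22.1 CPM in the same order, and Csf1 in TIGIT+ Teff at 29.3, 34.8 and 34.1 CPM.

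Counts of genes called between expanded and single clones moved more than the members did. In transitory Teff 194 genes were called, 68 with DESeq2, 427 with no filter on low counts, 83 after thinning, and 64 (without library 1) to 232 when single libraries were left out, with 114 without library 4. In GzmB+ Teff the counts were 580, 290 with DESeq2, 321 after thinning, and 337 to 505 with single libraries left out (383 without library 1 and 337 without library 4). In cycling cells they were 372, 214 with DESeq2, 713 with no filter, 70 after thinning, and 119 to 510 with single libraries left out (119 without library 1 and 243 without library 2). With no library block, 65 genes in transitory Teff and 129 in cycling cells were called, and Ifng lost its call in both (adjusted p = 0.0612 and 0.0599), as did Tnf, Fasl and Tnfsf10 in cycling cells (0.244, 0.201 and 0.602), by edgeR. The direction of a fold change turned under 1 alternative, for Ltb in GzmB+ Teff, which ranged from -0.15 to 0.0091 with single libraries left out and was above 0 without library 2. It was not called in any of these. Ifng in GzmB+ Teff and Ltb in cycling cells kept their calls under each of the 12 alternatives run, 2 of which were added after the data were seen. The cause of these changes was not tested, except that thinning removes UMIs and, like the filter, changes the number of genes tested. Depth limits Lta, Il2, Il10, Csf1 and Csf2, which were too low for the clone test.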
